A study of Mus musculus with 6 samples.

Results

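Col1a1, Col1a2, Col3a1, Sparc, Cxcl12, Bglap, Runx2, Kdr, Cdh5 and Pecam1 are genes by which stroma, bone-forming cells and blood vessels are commonly recognised, and their transcripts were measured here in mouse marrow cells cultured towards the myeloid lineage. The 10 genes were chosen by symbol, and all 10 are among the 17382 genes of the deposited table. The libraries came in 2 groups of 3, from C57BL/6 mice aged 2 months. The group labelled CKO came from PD-L1 flox/flox mice that also carried lysozyme-Cre, a recombinase driven from a lysozyme gene and so active mainly in myeloid cells. The group labelled WT came from littermates with PD-L1 flox/flox alleles and no Cre, so both groups carried the floxed gene. In both groups marrow passed a 40 μm strainer and was grown for 3 days with 40 ng/mL M-CSF, which supports the survival and growth of macrophages, in α-MEM with 10% FBS. The design text speaks of biological triplicates, but how many animals stood behind each library is not stated.

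Marrow stroma makes the fibrous matrix, supplies factors that hold blood precursors in place, and lines the vessels. Fibroblasts and osteoblasts secrete type I collagen, built from the chains of Col1a1 and Col1a2, and osteoblasts then fill the matrix with osteocalcin under the transcription factor RUNX2. Reticular cells make CXCL12, which retains blood-forming cells through the receptor CXCR4. Endothelial cells are held together by VE-cadherin and PECAM-1 and respond to VEGF through the receptor encoded by Kdr. Several of these genes are not confined to stroma: PECAM-1 is also found on platelets and monocytes, RUNX2 in plasmacytoid dendritic cells, and SPARC in megakaryocytes.

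Levels are given as TPM, which take account of gene length and add up to 1000000 within a library, so that levels of different genes can be set side by side. Whole reads were recovered from the TPM values, and their totals were 60599482 to 73442548 in the libraries labelled CKO and 52360748 to 77320081 in those labelled WT. A gene at 0 reads in a library may still have up to 3 reads, a floor that covers counting error only. Macrophage genes were abundant in every library. Cd68, an endosomal glycoprotein of macrophages, averaged 2129 ± 206 TPM in CKO and 2263 ± 253 TPM in WT (SD, n = 3 each). The targeted gene, Cd274, which encodes PD-L1, had 19.3, 19.2 and 29.2 TPM in the libraries labelled CKO, against 17.9, 15.5 and 23.7 TPM in those labelled WT. The groups overlapped, with a log2 difference, CKO minus WT, of 0.24 ± 0.22 (SE; adjusted p = 1.0, limma). The mean was thus not lower in the libraries labelled CKO. Which exons the floxed allele removes is not given in the sources used here, and reads outside them would not show the deletion, so CKO and WT below mean the libraries so labelled. On the first principal component, which held 44.4% of the variance of log2 TPM, CKO3 (31.8) lay with WT1 and WT2 (19.8 and 19.1), and WT3 (-30.1) lay with CKO1 and CKO2 (-23.1 and -17.4). CKO3 and WT3 thus stand apart from their own groups, and values without them are given where a result rests on them.

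The osteocalcin gene is shown first because its value is hard to assign. Mouse has 3 osteocalcin genes side by side on the minus strand of chromosome 3, and only Bglap was analysed here. GENCODE M21 (GRCm38) gives each a coding sequence of 288 bases for 95 residues. Bglap2 differs from Bglap at 4 of these bases (98.6% identity) and Bglap3 at 13 (95.5% identity). The coding sequences lie at chr3:88383635-88384415 for Bglap, chr3:88377870-88378650 for Bglap2 and chr3:88368756-88369536 for Bglap3, and capitals mark the bases that differ from Bglap.
Bglap: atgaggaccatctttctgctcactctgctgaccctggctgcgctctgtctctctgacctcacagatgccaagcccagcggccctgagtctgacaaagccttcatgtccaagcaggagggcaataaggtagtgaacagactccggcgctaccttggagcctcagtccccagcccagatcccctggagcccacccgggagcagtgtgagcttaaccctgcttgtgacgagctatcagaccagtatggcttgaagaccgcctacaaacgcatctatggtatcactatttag
Bglap2: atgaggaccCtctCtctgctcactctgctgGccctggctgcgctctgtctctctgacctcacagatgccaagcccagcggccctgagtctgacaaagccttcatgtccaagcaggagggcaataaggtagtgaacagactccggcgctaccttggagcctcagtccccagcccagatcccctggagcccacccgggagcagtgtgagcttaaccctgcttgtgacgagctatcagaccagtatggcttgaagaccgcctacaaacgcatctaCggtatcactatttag
Bglap3: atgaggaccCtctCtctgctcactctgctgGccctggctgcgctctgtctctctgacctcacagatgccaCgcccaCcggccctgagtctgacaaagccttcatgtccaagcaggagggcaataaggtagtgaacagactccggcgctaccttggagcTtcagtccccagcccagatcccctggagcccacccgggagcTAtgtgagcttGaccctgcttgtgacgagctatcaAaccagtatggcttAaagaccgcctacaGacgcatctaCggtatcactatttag

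Of the 391 windows of 50 bases in the Bglap transcript of 440 bases, 292 (74.7%) also occur in transcripts of Bglap2 or Bglap3. How reads that match more than 1 place were counted is not given in the sources used here, so a Bglap read cannot be told from a read of the neighbouring genes over most of the transcript. RUNX2 is known to drive osteocalcin through a site in the proximal promoter of the mouse gene, and Runx2 and Bglap are both among the 10 genes. The Bglap promoter is shown for that reason, as RefSeq gives it on GRCm38.p6, at chr3:88384467-88384716 on the minus strand, the 250 bases before the transcript start. Capitals mark the RUNX core letters ACCACA, found once, with its first base 132 bases before the start, and not found as TGTGGT, the same motif on the other strand.
Bglap promoter: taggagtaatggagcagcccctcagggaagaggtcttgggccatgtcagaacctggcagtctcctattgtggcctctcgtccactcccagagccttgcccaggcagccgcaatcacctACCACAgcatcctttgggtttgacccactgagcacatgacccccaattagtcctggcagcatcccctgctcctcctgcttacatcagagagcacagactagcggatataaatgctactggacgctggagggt

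The same letters on either strand occur in 4614 of 32851 promoter windows of this length (14.0%). Of the 7 genes of the group with a window in that RefSeq set, Runx2 itself also holds 1 match, 80 bases before its RefSeq start. Col1a2, Col3a1, Sparc, Cxcl12 and Kdr hold none. The Runx2 window overlaps the span counted here, chr17:44495987-44814797, and the match lies inside that span. A match is a description of the letters and not of binding.

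All 10 genes were low in these cultures, and they spanned a wide range among themselves. The endothelial genes Pecam1 and Kdr had the highest levels, with means over the 6 libraries of 4.42 ± 0.47 and 3.41 ± 1.19 TPM. Runx2 (1.93 ± 0.22 TPM), Sparc (1.32 ± 0.77 TPM) and Cdh5 (1.02 ± 0.29 TPM) came next. Col1a1 (0.200 ± 0.054 TPM), Cxcl12 (0.197 ± 0.095 TPM), Col1a2 (0.145 ± 0.132 TPM), Bglap (0.0908 ± 0.0538 TPM) and Col3a1 (0.0265 ± 0.0111 TPM) were the lowest (SD over 6 libraries throughout). In this order the range of Kdr lay wholly above that of Runx2, and that of Cdh5 wholly above that of Col1a1. The ranges of all other neighbours overlapped. Even Pecam1 had 10039 genes with a higher mean TPM, and Col3a1 had 15022. The summed level of the 10 genes was 11.9 ± 1.7 TPM in CKO and 13.6 ± 0.8 TPM in WT (SD, n = 3 each), and the groups overlapped.

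**Figure D1:**
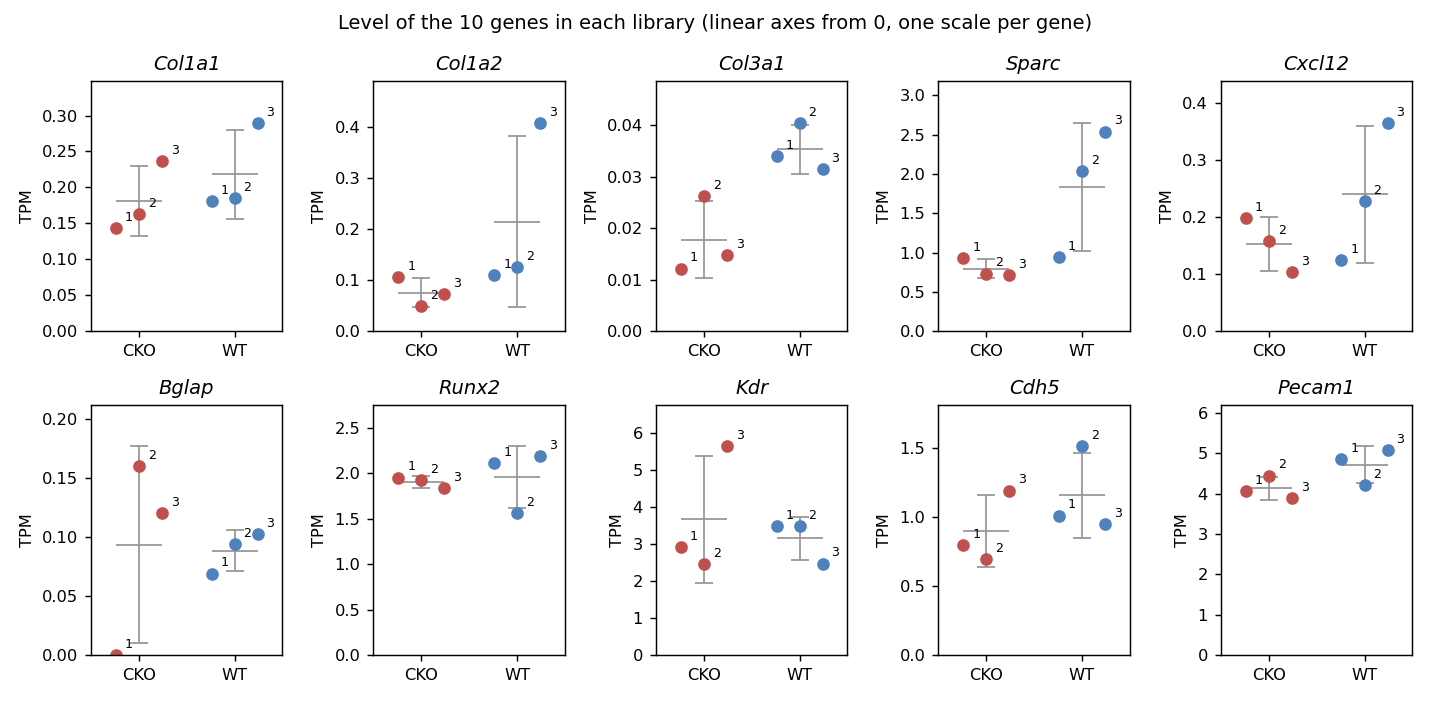
TPM of each of the 10 genes by library, on linear axes that start at 0 and differ between genes, with CKO left of WT. Points are libraries with their replicate number, and grey bars give the mean ± SD of 3 libraries; Sparc is high in WT2 and WT3, Col1a2 in WT3 and Kdr in CKO3.

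The reads behind these levels set how much can be said. Pecam1, Kdr and Runx2 had 312 to 746 reads in every library, Sparc and Cdh5 46 to 192, and Col1a1 and Cxcl12 18 to 75. Bglap had 10 reads over all 6 libraries and Col3a1 24. In bulk RNA a smaller number of cells of a type and less RNA per cell cannot be told apart, and this holds for every value below.

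**Figure D2:**
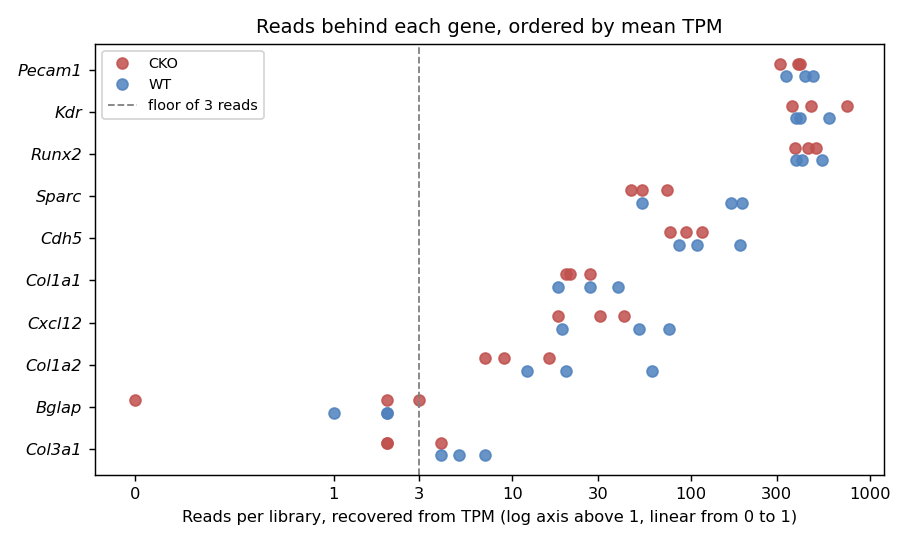
Reads per library recovered from TPM, on a log axis above 1 read, for the 10 genes ordered by mean TPM, with CKO points above WT points in each row. Bglap and Col3a1 lie near the dashed floor of 3 reads, where some libraries with equal read numbers coincide, and Pecam1, Kdr and Runx2 lie above 300 reads throughout.

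Genotype was tested over all genes with limma on log2(TPM + 0.1), a scale that understates changes of low genes, for the 13722 genes that reached 0.1 TPM in 3 or more libraries. Of the 10 genes 9 passed this filter, 0 were called at an adjusted p under 0.05, and each of the 9 had an adjusted p of 1.0 (Benjamini-Hochberg). The background share was also 0%, since 0 of the 13722 genes were called by limma. At an unadjusted p under 0.05, 128 genes (0.933%) were lower and 171 (1.25%) higher in CKO, and of the 10 genes 1, Sparc, was among the lower ones. On recovered reads limma-voom called 0 genes as well. At an unadjusted p under 0.05 it put 151 genes (1.1%) lower in CKO, and Sparc was again the 1 gene of the group among them. The authors' deposited table calls 46 of 17382 genes (0.265%), and 0 of the 10. Its smallest adjusted p among the 10, from a likelihood ratio test, was 0.326 for Sparc (log2 fold change -1.22). A negative log2 difference was found for 8 of the 9 tested genes and for the untested Col3a1, beside 48.9% of all tested genes, and its median was -0.19 over the 10 genes and 0.003 over all tested genes. The 8 include Bglap, with 5 reads in each group, and Runx2, at -0.02, so their signs carry little.

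Among the 10 genes the largest log2 differences were those of 2 matrix genes, Sparc and Col1a2. Sparc encodes osteonectin, a secreted protein that binds collagen and calcium, and lies at chr11:55394159-55420080 on the minus strand of mm10. It had 0.934, 0.732 and 0.718 TPM in CKO, against 0.948, 2.03 and 2.54 TPM in WT. All libraries labelled CKO lay below every WT library, but WT1 was close to CKO1 and the distance came from WT2 and WT3. In reads these were 73, 53 and 46 in CKO and 53, 167 and 192 in WT, and the exact Poisson interval of WT1 (39.7 to 69.3 reads at 95%) overlaps those of the CKO libraries, whose depths were higher. In log2 terms the difference was -1.02 ± 0.35 (SE; limma unadjusted p = 0.0250, adjusted p = 1.0). With single libraries left out it ranged from -1.42 to -0.75, and without both WT2 and WT3, left out after their values had been seen, it was -0.24. Without CKO3 and WT3 it was -0.69. With a term for the side of the first principal component, a division read from the same data, it was -1.19. The groups did not overlap, lower in CKO, for 2 of the 9 tested genes, Sparc and Col1a2, beside 2.27% of all tested genes. In the other direction it was 0 of the 9, beside 2.84%. Col1a2 passed the filter mainly through WT, and its groups barely separated, with 0.1102 TPM in WT1 and 0.105 TPM in CKO1. Of the macrophage list, Lyz2 divided by the same labels. Lyz2 encodes a lysozyme, and the Cre of the libraries labelled CKO is itself driven from a lysozyme gene. The summed level of the list was 18702 to 26095 TPM in CKO and 32828 to 47370 TPM in WT with Lyz2, and 5471 to 6741 TPM in CKO and 5661 to 7012 TPM in WT without it, where the groups overlapped.

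Col1a2 encodes the second chain of type I collagen and lies at chr6:4505697-4541543 on the plus strand. It had 0.105, 0.0496 and 0.0721 TPM in CKO, against 0.1102, 0.125 and 0.408 TPM in WT. The groups did not overlap, but WT1 lay just above CKO1, and WT3 stood far above all others. WT3 had 60 reads (exact Poisson interval 45.8 to 77.2 at 95%), and the other 5 libraries had 7 to 20. The log2 difference was -0.73 ± 0.38 (SE; adjusted p = 1.0, limma), and without WT3 it was -0.32. It was -1.29 with limma-voom on recovered reads and -1.20 with a pseudocount of 0.01, so its size depends on the scale used for low values. Col1a2 reached 0.1 TPM in CKO1 and the 3 WT libraries, so it passed the filter mainly through WT.

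Col1a1 encodes the chain of which type I collagen holds a pair per molecule, and lies at chr11:94936270-94951856 on the plus strand. It had 0.144, 0.163 and 0.237 TPM in CKO, against 0.181, 0.185 and 0.290 TPM in WT. WT3 was again the highest library, but CKO3 was the next highest and the groups overlapped. The log2 difference was -0.18 ± 0.24 (SE; adjusted p = 1.0, limma), and without WT3 it was -0.02. The ratio of Col1a1 to Col1a2 TPM was 1.37, 3.28 and 3.28 in CKO, against 1.64, 1.48 and 0.712 in WT. Col1a1 was thus above Col1a2 in every library except WT3. Col3a1, the chain of type III collagen, lies at chr1:45311538-45349706 on the plus strand and did not pass the filter in any library. It had 2, 4 and 2 reads in CKO and 4, 7 and 5 reads in WT, and the exact Poisson intervals of all 6 overlap. Its log2 difference was -0.20 with the pseudocount of 0.1, -0.74 with a pseudocount of 0.01 and -0.94 with limma-voom on recovered reads, and it was not tested in the main comparison. The 3 collagen genes together had 38, 32 and 38 reads in CKO and 34, 54 and 104 reads in WT.

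Cxcl12, the chemokine of the reticular niche, lies at chr6:117168535-117181368 on the plus strand. It had 0.198, 0.158 and 0.104 TPM in CKO, against 0.125, 0.229 and 0.366 TPM in WT. WT2 and WT3 were the highest libraries and WT1 lay below CKO1 and CKO2, so the groups overlapped. For Cxcl12 the log2 difference was -0.38 ± 0.32 (SE; adjusted p = 1.0, limma), and its sign turned to 0.15 without WT2 and WT3 and to 0.03 without CKO3 and WT3. Sparc, Col1a2 and Cxcl12 are the 3 genes of the 9 tested for which both WT2 and WT3 lay above every other library, a pattern named after the values were seen that 322 of the 13722 tested genes (2.35%) share.

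The osteoblast genes gave no difference beyond the spread between libraries. Bglap lies at chr3:88383495-88384466 on the minus strand. It had 0, 3 and 2 reads in CKO, against 1, 2 and 2 reads in WT, which is 0, 0.160 and 0.120 TPM against 0.0689, 0.0939 and 0.102 TPM. Every library lay at or under the floor of 3 reads, so no fold is given, and Bglap reached 0.1 TPM in CKO2, CKO3 and WT3 alone. Runx2 lies at chr17:44495987-44814797 on the minus strand. It had 1.95, 1.92 and 1.83 TPM in CKO, against 2.11, 1.56 and 2.19 TPM in WT. The libraries labelled CKO lay close together and inside the WT range. For Runx2 the log2 difference was -0.02 ± 0.17 (SE; adjusted p = 1.0, limma), and its sign changed with 3 of the 6 single libraries left out. The annotation places an antisense gene, Runx2os1, over 5.87% of the Runx2 exon bases, and whether the reads were counted by strand is not given in the sources used here. Runx2 had 381 to 536 reads in libraries that held 0 to 3 reads of Bglap. Markers of plasmacytoid dendritic cells, which also use Runx2, were present: Siglech had 2.73 to 4.07 TPM in CKO and 2.05 to 4.47 TPM in WT, and their part in the Runx2 level was not tested.

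Of the 3 endothelial genes, Kdr and Cdh5 varied between libraries of the same group and Pecam1 did not vary much. Kdr, the main VEGF receptor of vessels, lies at chr5:75933270-75978428 on the minus strand. It had 2.91, 2.46 and 5.64 TPM in CKO, against 3.49, 3.49 and 2.47 TPM in WT. CKO3 was far above the rest and the WT range lay inside that of CKO. In log2 terms the difference was 0.14 ± 0.33 (SE; adjusted p = 1.0, limma). It changed sign to -0.21 without CKO3, to -0.02 without WT3 and to -0.37 without both.

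Cdh5, which encodes VE-cadherin of endothelial junctions, lies at chr8:104101625-104144502 on the plus strand. It had 0.797, 0.696 and 1.19 TPM in CKO, against 1.01, 1.51 and 0.946 TPM in WT. WT2 and CKO3 were the highest libraries and the groups overlapped. For Cdh5 the log2 difference was -0.34 ± 0.27 (SE; adjusted p = 1.0, limma), with -0.15 without WT2 and -0.66 without CKO3 and WT3. For Kdr and Cdh5, 2 of the 9 tested genes, CKO3, WT1 and WT2 all lay above CKO1, CKO2 and WT3, the division of the first principal component. That division holds for 24.6% of all tested genes, so the 2 genes are near the background. The ratio of Kdr to Cdh5 TPM was 3.66, 3.53 and 4.74 in CKO, against 3.47, 2.31 and 2.61 in WT.

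Pecam1 lies at chr11:106654218-106715281 on the minus strand. It had 4.06, 4.45 and 3.89 TPM in CKO, against 4.86, 4.21 and 5.08 TPM in WT. WT2 lay inside the CKO range, so the groups overlapped. The log2 difference was -0.19 ± 0.13 (SE; adjusted p = 1.0, limma). Over the 6 libraries the SD of log2(TPM + 0.1) was 0.15 for Pecam1 and 0.16 for Runx2, against 0.18 for the median tested gene, and it was 0.72 for Sparc, 0.62 for Col1a2, 0.43 for Kdr and 0.36 for Cdh5. Platelet genes were abundant beside Pecam1, and all 14 listed megakaryocyte and platelet genes were above 0 in every library. Their summed level was 1030 to 1546 TPM in CKO and 1305 to 1491 TPM in WT, of which Pf4, a platelet chemokine that macrophages can also express, made up 701 to 1036 TPM in CKO and 858 to 916 TPM in WT. Their part in the Pecam1 and Sparc levels was not tested.

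**Figure D3:**
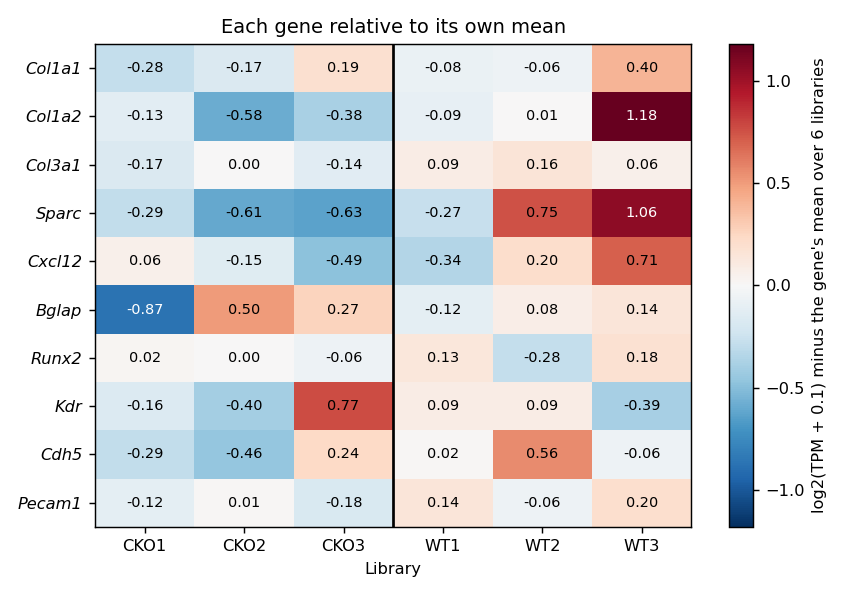
Log2(TPM + 0.1) of each of the 10 genes minus its mean over the 6 libraries, with CKO columns left of the black line and WT columns right of it. WT3 is the highest library for Col1a1, Col1a2, Sparc, Cxcl12, Runx2 and Pecam1, and WT2 and WT3 together are high for Sparc and Cxcl12.

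WT3 was the highest library for 6 of the 9 tested genes, and for 16.9% of all tested genes. CKO3 was the highest for 1, Kdr, beside 19.5%, WT2 for 1, Cdh5, beside 18.6%, and CKO2 for 1, Bglap, beside 10%. The 5 genes with a mean of at least 1 TPM whose pattern over the 6 libraries was most like that of Col1a1, by the root mean square difference of centred log2 values, were Gchfr (0.12), Gm10872 (0.12), Siglec1 (0.14), Cnn3 (0.14) and Cald1 (0.14). Cnn3 and Cald1 encode actin-binding proteins, and Siglec1 is the sialoadhesin of resident macrophages.

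Wider lists of the same cell types were read from the same fit. Each list median here and below is over all analysed genes of the list, including those that did not pass the filter. Of 25 further fibroblast and matrix genes 16 passed the filter, and 0 were called in either direction. Over all 25, tested or not, the median log2 difference was -0.22 and 17 were negative. The share of 48.9% negative is over tested genes alone, so it is not a like measure for these 25. Bgn, the matrix proteoglycan biglycan, had 0.311, 0.229 and 0.241 TPM in CKO, against 0.395, 0.982 and 0.746 TPM in WT. The groups did not overlap, with WT2 and WT3 highest (log2 difference -1.10 ± 0.32, SE; adjusted p = 1.0, limma). Fn1, fibronectin, had 2.04, 1.84 and 2.07 TPM in CKO, against 2.40, 3.80 and 2.63 TPM in WT, and the most abundant gene of the list, the metalloproteinase inhibitor Timp3, averaged 6.25 ± 0.91 TPM in CKO and 8.18 ± 1.19 TPM in WT (SD, n = 3 each).

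Thy1, a surface protein of fibroblasts that mouse T cells also carry, went the other way. It had 0.292, 0.463 and 0.617 TPM in CKO, against 0.272, 0.0741 and 0.0403 TPM in WT (log2 difference 1.37 ± 0.43, SE; adjusted p = 1.0, limma). The Thy1 groups did not overlap, with CKO just above WT at CKO1 and WT1. Its lowest libraries were WT2 and WT3, the libraries in which Sparc was highest. The type IV collagen genes Col4a1 and Col4a2, neighbours of opposite strand on chromosome 8 and named after their values were seen, shared the pattern of Sparc. Col4a1 had 0.817, 0.634 and 0.909 TPM in CKO, against 0.621, 1.90 and 2.05 TPM in WT. Col4a2 had 0.568, 0.414 and 0.571 TPM in CKO, against 0.558, 1.06 and 1.125 TPM in WT. WT2 and WT3 lay above every other library for 8 of the 16 tested genes of the list, beside 2.35% of all tested genes. This pattern was named after the values were seen, so the count is a description only. Among those genes, Col6a1 reached 0.1 TPM in the WT libraries alone, and Postn in CKO1, WT2 and WT3. Their high WT values thus helped them pass the filter.

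**Figure D4:**
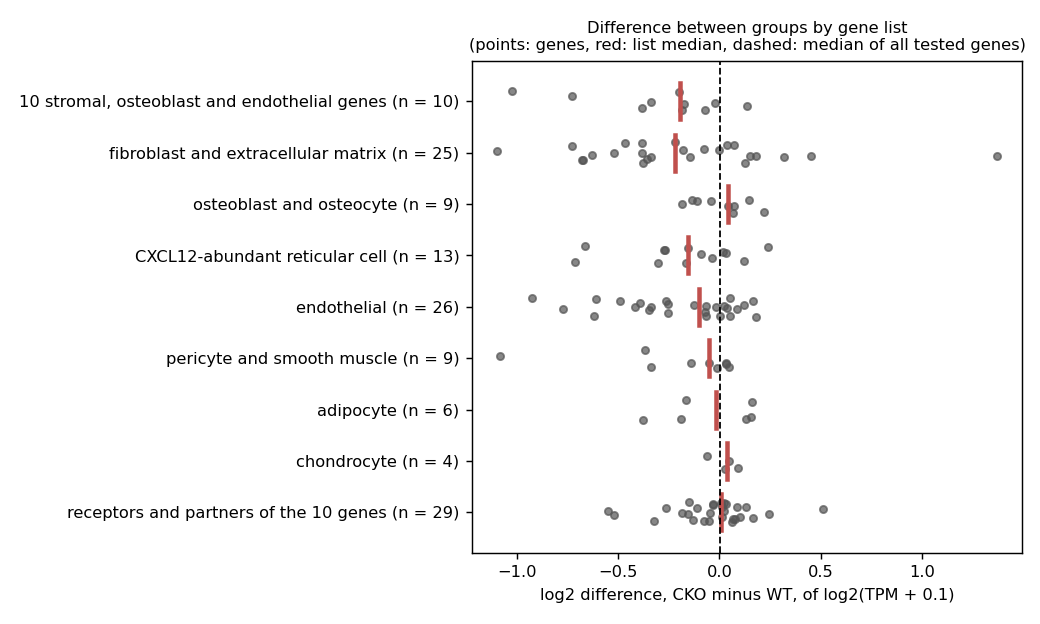
Log2 difference, CKO minus WT, of log2(TPM + 0.1) for the 10 genes and the genes of 8 wider lists, with each list's median in red and the median of all tested genes dashed. Of the medians shown, those of the 10 genes (-0.19) and of the fibroblast and matrix list (-0.22) lie lowest. The medians of the 10 genes and of the lists include genes that did not pass the filter, whose changes this scale understates. Their order therefore need not be that of the tested genes alone. No gene shown was called. Lists not shown had lower medians: -0.51 for B lineage, -0.47 for erythroid and -0.29 for megakaryocyte and platelet genes.

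Several defining genes of osteoblasts were at or near 0. Of 9 analysed genes of the osteoblast and osteocyte list 3 passed the filter, 0 were called, and the median log2 difference was 0.04. Sp7 (the osteoblast factor osterix), Dmp1, Tnfsf11 (RANKL) and Tnfrsf11b (its decoy receptor) were each at 0 reads in 3 or more libraries, and Alpl, the alkaline phosphatase of osteoblasts, had 0.028 to 0.037 TPM in CKO and 0.032 to 0.065 TPM in WT. Spp1, osteopontin, was the 1 gene of the list with a mean of at least 1 TPM, at 3040 ± 1747 TPM in CKO and 2420 ± 656 TPM in WT (SD, n = 3 each), and macrophages also make it. Ifitm5, a membrane protein of osteoblasts, averaged 0.652 ± 0.294 TPM in CKO and 0.765 ± 0.490 TPM in WT (SD, n = 3 each). Of 13 genes of the CXCL12-abundant reticular cell 4 were tested and 0 called, with a median of -0.16. Lepr and Foxc1, which mark these cells, were under 0.05 TPM in every library. Kitl, the ligand of the receptor KIT, had 13.6, 12.4 and 21.2 TPM in CKO, against 24.6, 23.1 and 11.8 TPM in WT, and Angpt1, a ligand of the endothelial receptor TIE2, had 1.55, 1.51 and 1.40 TPM in CKO, against 1.83, 1.66 and 1.97 TPM in WT. The groups overlapped for Kitl and did not for Angpt1 (log2 difference -0.27 ± 0.15, SE; adjusted p = 1.0, limma). Vcam1, an adhesion molecule that marrow macrophages carry too, had 22.3, 22.1 and 17.1 TPM in CKO, against 23.2, 44.0 and 36.7 TPM in WT, and the groups did not overlap (log2 difference -0.72 ± 0.24, SE; adjusted p = 1.0, limma).

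Of 26 further endothelial genes 20 were tested and 0 called, with a median of -0.10. Emcn, the endomucin of sinusoids, had 0.809, 0.474 and 0.508 TPM in CKO, against 0.646, 1.61 and 1.60 TPM in WT, again highest in WT2 and WT3, with groups that overlapped. Lyve1, a hyaluronan receptor of lymphatic vessels and some macrophages, had 0.104, 0.168 and 0.126 TPM in CKO, against 0.344, 0.210 and 0.348 TPM in WT, and its groups did not overlap (log2 difference -0.77 ± 0.24, SE; adjusted p = 1.0, limma). The most abundant genes of that list, the scavenger receptor Stab1 and the sphingosine phosphate receptor S1pr1, overlapped between groups and are also made by leukocytes. Stab1 averaged 1233 ± 170 TPM in CKO and 1231 ± 200 TPM in WT, and S1pr1 49.6 ± 12.8 TPM in CKO and 48.6 ± 11.6 TPM in WT (SD, n = 3 each). Of the 26 genes 20 were above 0 in every library. A mean of at least 1 TPM was reached by 11, and 6 had a mean below 0.1 TPM. Tek, Flt1 and Cldn5 were low, with means over all libraries of 0.093, 0.136 and 0.079 TPM. Endothelial genes seen in every library included Tie1, an endothelial receptor, at 0.435 to 0.549 TPM in CKO and 0.511 to 0.783 TPM in WT, and Erg, an endothelial transcription factor also used by blood precursors and megakaryocytes, at 1.53 to 1.79 TPM in CKO and 1.26 to 1.74 TPM in WT. Egfl7, which endothelium secretes, had 1.87 to 2.10 TPM in CKO and 1.85 to 2.06 TPM in WT. Sox17 and Gpihbp1, markers of arterial and capillary endothelium, were at 0 reads in 3 or more libraries.

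Other cell types that marrow can hold were called in no list. Of pericyte and smooth muscle genes 4 of 9 were tested, of adipocyte genes 3 of 6, of chondrocyte genes 2 of 4 and of muscle genes 3 of 5, and 0 were called in each, with medians of -0.05, -0.02, 0.04 and -0.05. Tagln, a smooth muscle actin-binding protein, had 0.426, 0.276 and 0.286 TPM in CKO, against 0.268, 1.44 and 1.19 TPM in WT. The desmin gene Des, the chondrocyte gene Col2a1 and the adipocyte gene Plin1 were at 0 in 3 or more libraries. Of the 8 genes of the B lineage list, 6 were higher in both WT2 and WT3 than in any other library, beside 2.35% of all tested genes. That pattern was named after the values were seen. The summed level of the B lineage list was 58.0 to 98.6 TPM in CKO and 92.4 to 119 TPM in WT. Its part in the differences above was not tested. All 7 erythroid genes analysed had a negative log2 difference, beside 48.9% of all tested genes. Their median was -0.47, and 0 were called. Hba-a1 and Hba-a2 had the same recovered reads in every library, so they count as 1 measurement. Medians were -0.29 for 14 megakaryocyte and platelet genes, -0.002 for 9 plasmacytoid dendritic cell genes, 0.05 for 9 myeloid progenitor genes, 0.02 for 8 macrophage genes, -0.09 for 8 osteoclast genes and -0.51 for the 8 B lineage genes, with 0 calls in each.

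Several receptors of these products were abundant. Of 29 analysed receptors and partners 24 were tested and 0 called, with a median log2 difference of 0.01. Cxcr4, the receptor of CXCL12, had 69.8, 63.4 and 28.8 TPM in CKO, against 44.6, 31.1 and 77.7 TPM in WT. Its lowest libraries were CKO3 and WT2, and the groups overlapped. Mrc1, which takes up collagen, averaged 1169 ± 97 TPM in CKO and 1090 ± 102 TPM in WT, and Itgb1, the shared chain of collagen-binding integrins, 534 ± 44 TPM in CKO and 529 ± 43 TPM in WT (SD, n = 3 each). Itga2, the partner chain of the collagen receptor of platelets, had 0.705, 0.519 and 0.557 TPM in CKO, against 0.828, 0.846 and 1.07 TPM in WT, with no overlap (log2 difference -0.55 ± 0.19, SE; adjusted p = 1.0, limma). Cbfb, the partner of RUNX2, was at 167 to 231 TPM over all libraries and Runx1, a paralog of Runx2, at 20.3 to 23.5 TPM, against 1.56 to 2.19 TPM for Runx2.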

How the data were processed

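RNA of 6 myeloid cultures, 3 labelled CKO and 3 labelled WT, was sequenced from strand-specific total RNA libraries per the labels' protocols. The submitters' processing notes name mm10, edgeR, Subread, featureCounts, TopHat2 2.0.12, Picard 1.127 and FastQC 0.11.2, and no counting option or annotation was stated there. The authors deposited TPM per gene and library (the unit read from the values), and per the file headers their own comparison: p-value and adjusted p-value, log2 fold change, a score from a likelihood ratio test, and average log2 CPM; a positive fold change is higher in CKO. Gene starts count from 0 in the table and are printed from 1.

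Whole reads were recovered from exact ratios of TPM between libraries, and a gene was accepted only where these were whole within 0.01 of a read. That 100% of the 93806 values above 0 of accepted genes were whole follows from this rule and is no check. For 465 genes the common factor came from the authors' mean log2 CPM, and 38 of them, all very abundant, showed no whole ratio. For accepted genes the recovered mean log2 CPM differed from the authors' by at most 0.103, though the authors' value also served to choose the factor.

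The genotype comparison used limma 3.58.1 (R 4.3.3; mean-variance trend, two-sided, Benjamini-Hochberg) on log2(TPM + 0.1), for genes at 0.1 TPM or more in 3 or more libraries; the fit was tested on simulated data. Whether the libraries came from separate animals is not stated, so p-values reflect only the spread among them, which may be technical; an exact permutation test of 3 against 3 cannot reach 0.05. Other pseudocounts, filters, scalings, tests and left-out libraries were tried.

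The 10 genes and the wider lists were chosen with earlier results of these data known, so they were given no list test. Named genes are the 10, Cd274, the 2 most abundant and 2 smallest-p genes of each list where the text needs them, and the 5 most like Col1a1; others were named after their values were seen. Some genes that these rules would name are not reported here.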

Additional observations from a re-analysis of the deposited data

How the results depend on the processing

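Over 16 alternatives the number of genes of the group called by limma was 0 each time, and the number over all genes was 0 in 15. Without CKO3 and WT3 together it was 1400 (694 higher, 706 lower), when genotype coincides with the division of the first principal component. With single libraries left out both numbers were 0, and the median log2 difference of the 10 genes ranged from -0.25 to -0.13. That median was -0.42 with limma-voom on recovered reads, -0.45 with a pseudocount of 0.01 and -0.073 with a pseudocount of 1, beside -0.19; the pseudocount sets how far low genes can move.

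Single genes that changed sign were the following. Bglap was 0.0040 with a pseudocount of 1 and 0.082 without WT2 and WT3, and -0.34 to 0.35 with single libraries left out. Cxcl12 was 0.027 without CKO3 and WT3 and 0.15 without WT2 and WT3. Kdr was -0.37 and -0.023 under those settings and -0.21 to 0.37 with single libraries left out. Runx2 was 0.087 without CKO3 and WT3 and -0.17 to 0.062 with single libraries left out. The cause was not tested. Leaving out WT2 and WT3 was added after the data were seen and leaves WT1 alone, assumed to vary like CKO. Sparc, Col1a1, Col1a2, Col3a1, Cdh5 and Pecam1 kept a negative sign in all 16. Col1a2 ranged from -1.29 to -0.17 and Col3a1 from -0.94 to -0.025.

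The labels do not say whether replicate numbers shared by the groups pair the libraries. Deviations of same-numbered libraries had correlations across genes of -0.239, -0.146 and -0.534. Libraries on the same side of the first principal component had positive ones, such as 0.33 for CKO3 with WT2 and 0.432 for CKO1 with WT3. These correlations therefore cannot show whether the libraries were paired. With a replicate block 0 genes were called, of the group or of all, 232 had an unadjusted p under 0.05, against 299 without it, and Sparc had an unadjusted p of 0.0533. Depth limits Bglap and Col3a1, with 10 and 24 reads in all.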

Other observations

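The same measure of likeness was read for Sparc and Kdr after their values had been seen, over 11652 genes with a mean of at least 1 TPM. Among the genes most like Sparc were Col4a1 (root mean square difference 0.25), Vcam1 (0.28), Timd4 (0.30) and Lyz2 (0.34). Timd4, a receptor of resident macrophages, had 0.575, 0.738 and 0.909 TPM in CKO, against 0.955, 2.08 and 1.91 TPM in WT. Genes known from stroma and from macrophages were both among them. WT2 and WT3 were highest for each of these 4, which the choice by likeness to Sparc favours, so it is no separate result. For Lyz2, WT1 (26707 TPM) lay close to WT2 (27493 TPM).

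The gene most like Kdr was Col18a1, the basement membrane collagen from which endostatin is cut, with a difference of 0.04. It had 7.17, 5.66 and 13.6 TPM in CKO, against 8.81, 8.35 and 6.00 TPM in WT, with CKO3 highest as for Kdr. The next were Pfkp (0.07), Slfn10-ps (0.08), Agpat4 (0.09) and 1300002K09Rik (0.09), and CKO3 was the highest library for each. The choice by likeness to Kdr favours this, so it is no separate result. Pfkp, a phosphofructokinase of glycolysis, had 75.5, 75.0 and 155 TPM in CKO, against 93.5, 101.2 and 68.5 TPM in WT.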
